A study of Narcissus tazetta subsp. chinensis with 8 samples.

Results

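Transcript levels in the corolla of Narcissus tazetta cv Jinzhanyintai, a Chinese narcissus, were compared between 2 stages. These were the full-bloom stage on day 7 and the early flowering stage on day 1. Each day had 2 libraries from separate biological repeats, so the comparison rests on 4 of the series' 8 libraries; the other 4 are petal from the same days. The labels name no treatment, and the plants grew in a plantation. The labels state neither the number of flowers in each repeat nor how the tissues were taken apart, and the p-values therefore measure only the spread between these repeats. The table of all corolla genes lists 64490 genes assembled from the reads. A gene was tested when it reached 1 FPKM (fragments corrected for transcript length and for the mapped total of the library) in 2 or more of the 4 libraries, which left 22407 genes.

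Corolla and petal cells are covered by a cuticle, a layer of the polyester cutin filled and coated with waxes that are built from very-long-chain fatty acids. A flower organ opens mainly by expansion of cells that already exist, which needs looser walls, new membrane and the uptake of water and solutes. Older flower organs are known to dismantle plastids, membranes and proteins and to export what can be reused.

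Of the tested genes, 1462 (6.52%) rose and 3358 (15.0%) fell from day 1 to day 7 by limma's moderated test on log2(FPKM + 1) at a Benjamini-Hochberg FDR of 0.05, together 21.5%. The median change over all tested genes was -0.06 on that log2 scale, which understates changes of genes near or below 1 FPKM. At least 2-fold changes numbered 816 up and 1652 down, and at least 8-fold changes 54 up and 82 down. The share of genes that passed grew with abundance. Among genes with a mean of 1 to 3 FPKM, 3.07% rose and 4.43% fell, against 15.7% and 39.4% of those at 100 to 1000 FPKM. In all 4820 genes that passed, both day 7 libraries lay beyond both day 1 libraries, as they did in 63.6% of all tested genes. With either day 1 library left out no gene passed FDR 0.05, although 5139 and 5551 genes had an unadjusted limma p under 0.05, and this holds for every count of corolla calls below, though not for the comparison with petal. Without day 7 replicate 1, 502 genes rose and 1932 fell. Without day 7 replicate 2, 1074 rose and 1858 fell.

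**Figure D1:**
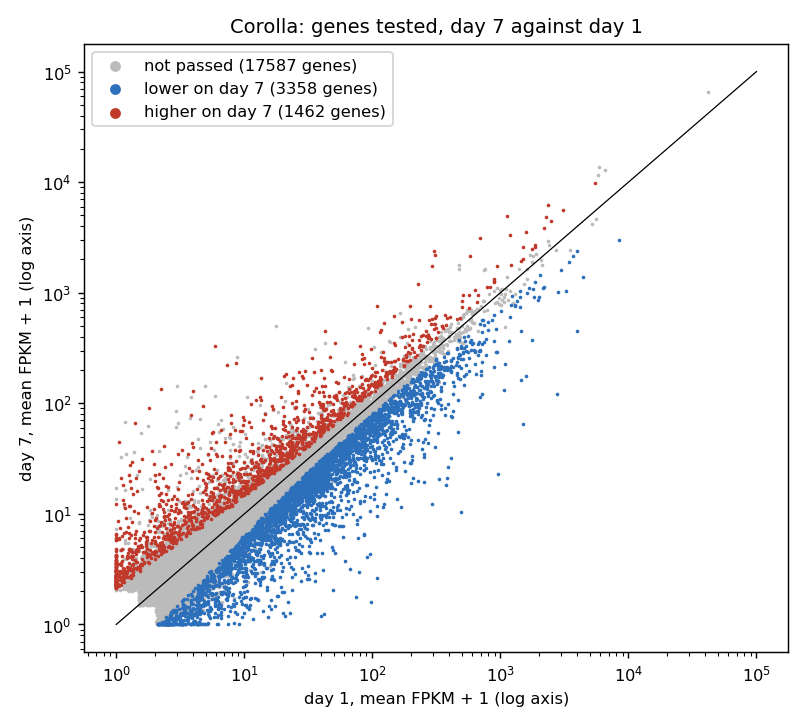
Mean FPKM + 1 of each tested corolla gene on day 1 (horizontal, log axis) and day 7 (vertical, log axis). The 3358 genes lower on day 7 lie below the line of equal level and the 1462 higher genes above it.

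The libraries held 23336 to 26172 genes at 1 FPKM or more. Relative depth, from counts divided by FPKM of genes the authors called, was 1 in day 1 replicate 1, 0.829 in day 1 replicate 2, 0.997 in day 7 replicate 1 and 0.737 in day 7 replicate 2. Replicates correlated across the tested genes at r = 0.976 on day 1 and 0.963 on day 7, where genes are not independent. The labelled tissue was looked at through genes with the names of rice B-class organ identity factors, which specify petals and stamens. The one named MADS-box transcription factor 16 (c95429.graph_c0) measured 30.4 and 24.7 FPKM on day 1 and 7.47 and 4.36 FPKM on day 7. MADS-box transcription factor 2 (c106110.graph_c1) measured 479 and 446 FPKM on day 1 and 165 and 173 FPKM on day 7. Both were present in all 4 libraries, which does not tell corolla from stamen. Of 5 tested organ identity and other MADS-box genes, 2 rose, 2 fell and 1 did not pass. A riser, the AGL8 homolog (c96931.graph_c0), had 18.6 and 21.5 FPKM on day 1 and 53.7 and 44.2 FPKM on day 7. MADS-box transcription factors 16 and 2 were the 2 that fell (log2 fold changes -2.08 and -1.44, limma adjusted p = 0.0088 and 0.0016). Both pollen and anther genes described through corolla fell as well. Pollen-specific protein C13 (c86428.graph_c0) had 15.9 and 11.7 FPKM on day 1 and 2.46 and 1.96 FPKM on day 7. Neither of 2 further pollen and anther genes, described through petal alone, passed (median change 1.12). The part of such cells in the other results was not tested.

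Protein names exist only for genes that the authors themselves called in one of the tissues. The corolla annotation describes 1517 genes, of which 1489 were tested, and 415 (27.9%) of these rose and 1014 (68.1%) fell, with a median change of -1.29. Counts within the lists of described genes below are therefore a description: nearly every member passes because of how it came to be described, and the share that rose or fell has to be read against these 2 percentages. These counts leave out genes described through petal alone, unless petal is named. The RNA comes from whole tissue, so fewer cells of a type and less RNA per cell cannot be told apart in any of these results. Gene pieces of a de novo assembly that share a component number may belong to a single gene or to close copies.

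**Figure D2:**
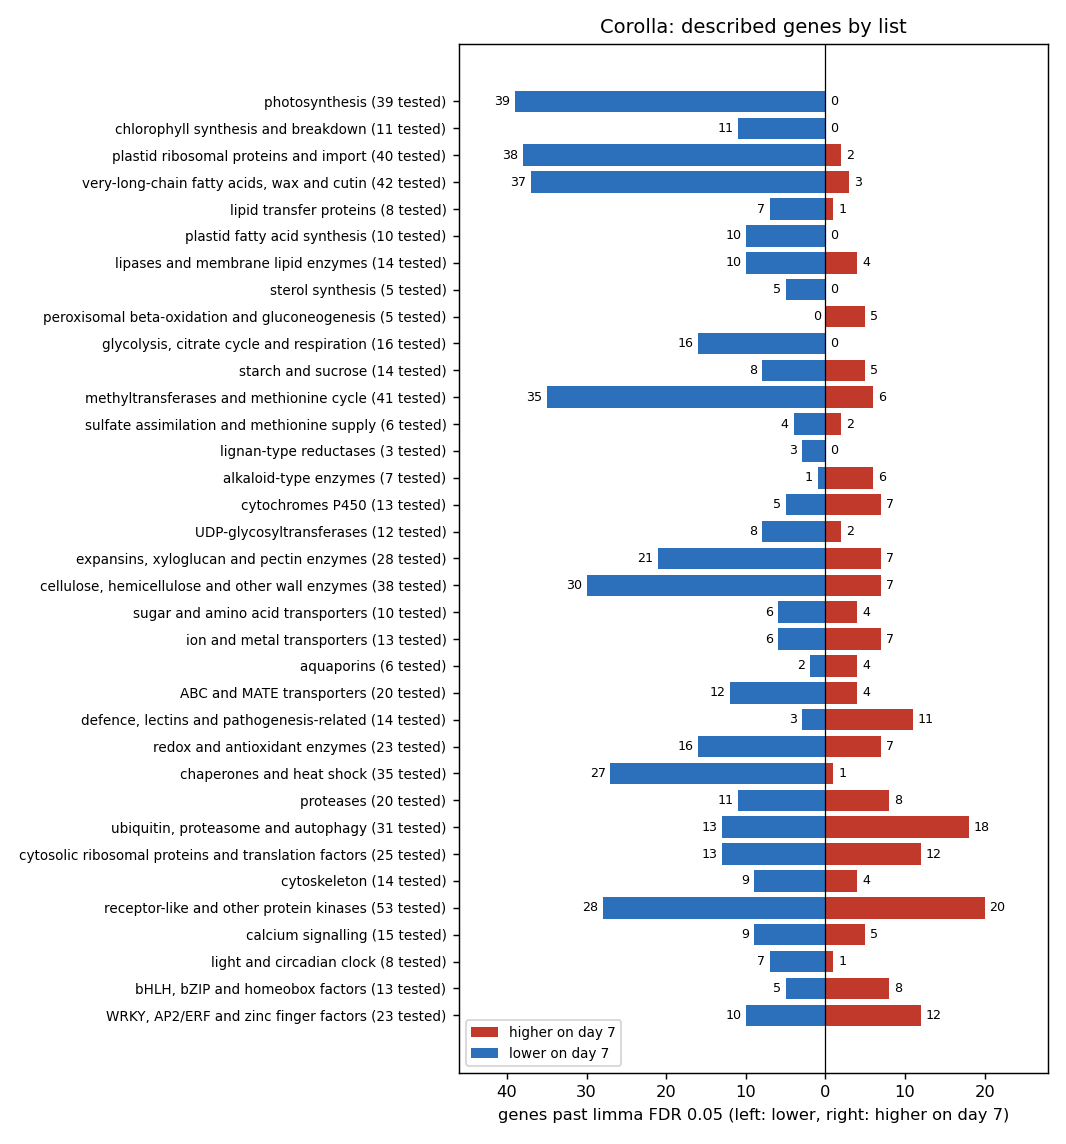
Number of described genes past limma FDR 0.05 in each list, those lower on day 7 to the left and those higher to the right, with the number tested beside the list's name. The wax and cutin list has 37 falling genes and 3 rising ones, and the defence list 11 rising and 3 falling ones; lists can share members.

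Genes for wax and cutin fell in nearly all cases. Of 42 tested members of the list for very-long-chain fatty acids, wax and cutin, 37 fell, 3 rose and 2 did not pass, with a median change of -2.18. All 6 3-ketoacyl-CoA synthases, which add the carbon units that lengthen fatty acids, fell, with a median change of -3.19, and all 4 ECERIFERUM genes, named after Arabidopsis wax mutants, fell, with a median of -2.49. The list also takes in 16 GDSL esterases/lipases by name, enzymes of which only some are known to act on cutin; 14 of these fell and 2 rose. Among the other 26 members 23 fell and 1 rose. Wax and cutin are made by the epidermis, and both tested members of the epidermis and guard cell list fell too (median -1.48). ASPARTIC PROTEASE IN GUARD CELL 1 (c98782.graph_c0) had 67.2 and 61.96 FPKM on day 1 and 21.7 and 21.7 FPKM on day 7 (limma log2 fold change -1.53 ± 0.09 SE, adjusted p = 0.00186). ASPARTIC PROTEASE IN GUARD CELL 2 (c104780.graph_c0) had 57.5 and 66.2 FPKM on day 1 and 23.9 and 21.1 FPKM on day 7 (limma log2 fold change -1.42 ± 0.12 SE, adjusted p = 0.0036). Of 4 further members described in the petal table alone, 3 fell. The part of the epidermis in the fall of the wax genes was not tested.

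GDSL esterase/lipase At1g71250 (c99501.graph_c0) was among the most abundant corolla genes on day 1, with 3143 and 2412 FPKM on day 1 and 113 and 126 FPKM on day 7. Both day 7 values lay far below both day 1 values (limma log2 fold change -4.52 ± 0.15 SE, adjusted p = 0.00121). GDSL esterase/lipase APG (c101094.graph_c0) had 337 and 246 FPKM on day 1 and 10.3 and 12.2 FPKM on day 7. A gene named cytochrome P450 86B1-like (c104614.graph_c1), a family that oxidises the end of fatty acid chains, had 44.5 and 33.3 FPKM on day 1 and 0.38 and 0 FPKM on day 7. It was thus listed at 0 in 1 day 7 library and close to 0 in the other, and its log2 fold change of -5.07 rests on the added 1 FPKM. Alkane hydroxylase MAH1 (c104614.graph_c3), the enzyme that turns wax alkanes into secondary alcohols in Arabidopsis, was the most abundant member, with 4477 and 4345 FPKM on day 1 and 1285 and 1490.2 FPKM on day 7 (limma log2 fold change -1.67 ± 0.12 SE, adjusted p = 0.00242). It fell by less than these genes and was still above 1000 FPKM in both day 7 libraries.

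Several further wax and cutin genes, chosen after their values were seen, cover other steps. Glycerol-3-phosphate 2-O-acyltransferase 6 (c102074.graph_c2), which makes cutin monomers in Arabidopsis, had 401 and 348 FPKM on day 1 and 17.4 and 17.3 FPKM on day 7 (log2 fold change -4.35, limma adjusted p = 0.00121). ECERIFERUM 3 (c109443.graph_c1), which acts with ECERIFERUM 1 in alkane formation, had 779.8 and 667 FPKM on day 1 and 121 and 121 FPKM on day 7 (-2.57, limma adjusted p = 0.00134). ECERIFERUM 1 (c100302.graph_c0) had 486 and 444 FPKM on day 1 and 48.7 and 59.7 FPKM on day 7, and the groups of all 3 genes were well apart. The 3 rising members were GDSL esterase/lipase At1g31550 (c90854.graph_c0), GDSL esterase/lipase EXL3 (c96233.graph_c1) and the wax ester synthase-type O-acyltransferase WSD1 (c102555.graph_c0). At1g31550 went from 1.74 FPKM or less to over 30, with 0.04 and 1.74 FPKM on day 1 and 40.1 and 32.4 FPKM on day 7 (limma log2 fold change 4.46 ± 0.48 SE, adjusted p = 0.00627). WSD1 had 59.7 and 60.2 FPKM on day 1 and 133 and 113 FPKM on day 7, both later values above both early ones (limma log2 fold change 1.02 ± 0.10 SE, adjusted p = 0.0055).

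Lipid transfer proteins, small secreted carriers that move lipids to the surface, fell too. Of 8 tested members of that list, which includes an oleosin, 7 fell and 1 rose, with a median of -1.67. Of 2 further members described through petal alone, 1 fell and 0 rose (median 0.10). Non-specific lipid-transfer protein 2 (c86074.graph_c0) had 126 and 88.8 FPKM on day 1 and 1.35 and 1.93 FPKM on day 7, and its day 7 values were a small fraction of the day 1 values (limma log2 fold change -5.35 ± 0.22 SE, adjusted p = 0.00135). The GPI-anchored lipid transfer protein 1 gene c95472.graph_c0 was far more abundant per length, with 2782 and 2814 FPKM on day 1 and 978 and 1060.4 FPKM on day 7 (limma log2 fold change -1.46 ± 0.09 SE, adjusted p = 0.00205). It fell less steeply and stayed near 1000 FPKM. The only rising member, non-specific lipid-transfer protein A (c94451.graph_c0, chosen after its values were seen), had 0.10 and 0.75 FPKM on day 1 and 4.84 and 7.04 FPKM on day 7.

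Enzymes of fatty acid and sterol supply moved the same way. All 10 tested plastid fatty acid synthesis genes described through corolla fell (median -1.40), and 1 described through petal alone did not pass (change 0.88). Acyl carrier protein 1 (c90713.graph_c0), the carrier of the growing chain, had 233 and 218 FPKM on day 1 and 80.7 and 89.5 FPKM on day 7 (limma log2 fold change -1.40 ± 0.09 SE, adjusted p = 0.00207). Both endoplasmic reticulum omega-6 fatty acid desaturases, which make linoleate, fell steeply: c96035.graph_c0 had 362 and 296 FPKM on day 1 and 21.8 and 17.2 FPKM on day 7. The other, c98940.graph_c0, had 426 and 350.1 FPKM on day 1 and 26.1 and 24.8 FPKM on day 7 (limma log2 fold change -3.87 ± 0.12 SE, adjusted p = 0.00121). In the list of lipases and membrane lipid enzymes 10 of 14 fell and 4 rose, shares near those of all described genes. All 5 sterol synthesis genes fell (median -1.13), among them Delta(24)-sterol reductase (c104541.graph_c0), with 48.7 and 42.6 FPKM on day 1 and 9.41 and 10.3 FPKM on day 7 (limma log2 fold change -2.10 ± 0.12 SE, adjusted p = 0.00181). The 4 rising genes of the lipase and membrane lipid list were degrading enzymes or acyltransferases by name. Triacylglycerol lipase 2 (c104738.graph_c0) had 149 and 189.8 FPKM on day 1 and 408 and 390.1 FPKM on day 7, and phospholipase D alpha 1 (c104036.graph_c0), which cleaves head groups off membrane lipids, had 15.3 and 15.1 FPKM on day 1 and 34.1 and 39.4 FPKM on day 7 (log2 fold changes 1.24 and 1.21, limma adjusted p = 0.0059 and 0.00475). Triacylglycerol lipase 1 and diacylglycerol O-acyltransferase 1 were the remaining 2.

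All 5 tested genes of peroxisomal beta-oxidation and gluconeogenesis, the route that turns fatty acids into sugar, rose, with a median change of 1.39. The list was drawn up after values were seen. Phosphoenolpyruvate carboxykinase (c109488.graph_c0), the entry step of gluconeogenesis, had 89.5 and 153 FPKM on day 1 and 589.5 and 470.2 FPKM on day 7 (limma log2 fold change 2.16 ± 0.28 SE, adjusted p = 0.00934). Its day 1 replicates differed from each other, and the lower day 7 value was still above both. Peroxisomal 3-ketoacyl-CoA thiolase 2 (c100748.graph_c1), the last step of each beta-oxidation cycle, had 282 and 277 FPKM on day 1 and 918 and 590.2 FPKM on day 7 (limma log2 fold change 1.39 ± 0.22 SE, adjusted p = 0.0152). Enoyl-CoA hydratase 2 (c103165.graph_c2) had 19.3 and 20.2 FPKM on day 1 and 59.8 and 53.2 FPKM on day 7. Acyl-coenzyme A oxidase 4, the first step of the cycle, and the acetate activating enzyme AAE7 completed the 5.

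All 16 corolla-described genes tested in the list of glycolysis, the citrate cycle and respiration, which was matched by name, fell (median -1.41). The most abundant was the plastid pyruvate dehydrogenase E1 subunit alpha-3 (c104613.graph_c0), which makes acetyl-CoA for fatty acid synthesis, with 2082 and 1947 FPKM on day 1 and 905 and 906 FPKM on day 7 (limma log2 fold change -1.15 ± 0.09 SE, adjusted p = 0.00285). The largest falls of the list were in further genes of that plastid subunit (c75048.graph_c0 and c89000.graph_c0, -2.17 and -1.90). D-3-phosphoglycerate dehydrogenase 1 (c97325.graph_c0, -1.75), an enzyme of serine synthesis, came next, so the list is broader than its name. Neither of 2 further members of that list, described through petal alone, passed (median 0.66). Starch and sucrose genes were mixed, with 5 rising and 8 falling of 14. Both small subunits of glucose-1-phosphate adenylyltransferase, the committed step of starch synthesis, fell; c100590.graph_c0 had 36.2 and 25.02 FPKM on day 1 and 2.81 and 1.97 FPKM on day 7 (limma log2 fold change -3.21 ± 0.24 SE, adjusted p = 0.00283). Alpha-amylase 3 (c110052.graph_c0), which degrades starch, fell as well, with 42.98 and 37.4 FPKM on day 1 and 6.95 and 7.01 FPKM on day 7. Neutral/alkaline invertases, which split sucrose, went both ways: invertase 3 (c100681.graph_c1) had 22.7 and 26.2 FPKM on day 1 and 106 and 78.7 FPKM on day 7 and invertase 1 (c102877.graph_c0) 68.9 and 55.1 FPKM on day 1 and 16.7 and 16.6 FPKM on day 7. Trehalose-phosphate synthase 5 (c102251.graph_c0) rose (log2 fold change 1.42, limma adjusted p = 0.00543).

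Genes that supply and use methyl groups mostly fell. In the list of methyltransferases and the methionine cycle 35 of 41 fell and 6 rose (median -1.46). Phosphoethanolamine N-methyltransferase 1 (c101855.graph_c1), which makes the head group of phosphatidylcholine, had 108 and 71.9 FPKM on day 1 and 3.59 and 2.64 FPKM on day 7 (limma log2 fold change -4.45 ± 0.24 SE, adjusted p = 0.00158). All 12 genes named probable methyltransferase PMT, Golgi proteins linked to wall pectin in Arabidopsis, fell (median -1.48); PMT15 (c105724.graph_c0) had 24.2 and 20.6 FPKM on day 1 and 1.86 and 1.52 FPKM on day 7. The 4 trans-resveratrol di-O-methyltransferases, named after a grape enzyme, split evenly. The most abundant, c103420.graph_c0, had 8703 and 8166 FPKM on day 1 and 2833 and 3158 FPKM on day 7 and fell (limma log2 fold change -1.49 ± 0.12 SE, adjusted p = 0.00349). The gene c54333.graph_c0 had 1528 and 1662 FPKM on day 1 and 3139.6 and 3941 FPKM on day 7 and rose (limma log2 fold change 1.14 ± 0.14 SE, adjusted p = 0.00913), and in each day 7 library it was the higher of the 2.

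Of 6 genes for sulfate assimilation and methionine supply, a list drawn up after values were seen, 4 fell and 2 rose. These shares are near those of all described genes. Cystathionine gamma-synthase 1 (c105976.graph_c0), the committed step of methionine synthesis, had 739 and 649 FPKM on day 1 and 118 and 109 FPKM on day 7 (limma log2 fold change -2.60 ± 0.10 SE, adjusted p = 0.00134). The 2 ATP sulfurylases, which activate sulfate, moved in opposite directions. ATP sulfurylase 2 (c104633.graph_c0) had 107 and 97.3 FPKM on day 1 and 14.2 and 14.3 FPKM on day 7 (-2.75 on the log2 scale, limma adjusted p = 0.00121). ATP sulfurylase 1 (c97256.graph_c0) had 79.1 and 84.99 FPKM on day 1 and 287 and 269 FPKM on day 7 (1.75, limma adjusted p = 0.00149). The former was the higher on day 1 and the latter on day 7. Sulfate transporter 3.1 (c107624.graph_c0), with 17.1 and 31.6 FPKM on day 1 and 123 and 85.2 FPKM on day 7, rose too (limma log2 fold change 2.09 ± 0.33 SE, adjusted p = 0.016).

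Narcissus makes alkaloids of the Amaryllidaceae type; the names here come from enzymes of other plants and do not give the substrate. Of 7 tested genes in the alkaloid-type list, 6 rose and 1 fell, with a median of 1.88. The falling one, S-norcoclaurine synthase (c106745.graph_c0), named after an enzyme that condenses aromatic building blocks, was the most abundant on day 1, with 1526 and 1348 FPKM on day 1 and 165 and 158 FPKM on day 7 (limma log2 fold change -3.14 ± 0.09 SE, adjusted p = 0.00121). Codeine O-demethylase (c100255.graph_c0), named after a poppy dioxygenase, had 8.27 and 11.5 FPKM on day 1 and 72.8 and 59.8 FPKM on day 7 (limma log2 fold change 2.64 ± 0.19 SE, adjusted p = 0.00256). Tropinone reductase homolog At1g07440 (c93683.graph_c0) had 32.1 and 36.04 FPKM on day 1 and 189 and 193 FPKM on day 7 (limma log2 fold change 2.46 ± 0.09 SE, adjusted p = 0.00128). The largest rise of the list was in polyphenol oxidase A1 (c105091.graph_c0), by name an oxidase of phenols, so the list is broader than its title. It had 0.83 and 1.36 FPKM on day 1 and 20.07 and 12.97 FPKM on day 7 (limma log2 fold change 3.05 ± 0.28 SE, adjusted p = 0.00439). In each named gene of the list the 2 days were clearly apart, as the choice of named genes required.

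All 3 lignan-type reductases, a list drawn up after values were seen, fell. Secoisolariciresinol dehydrogenase (c83079.graph_c0), which acts late in lignan synthesis, had 419 and 350.3 FPKM on day 1 and 17.9 and 22.4 FPKM on day 7 (limma log2 fold change -4.19 ± 0.15 SE, adjusted p = 0.00127). Of 13 cytochromes P450, 7 rose, 5 fell and 1 did not pass. The 3 largest falls were in families of fatty acid hydroxylases (86B1-like, 86A2 and 77A2). The risers were of other families: cytochrome P450 71A1 (c105382.graph_c0) had 7.90 and 9.85 FPKM on day 1 and 73.02 and 66.5 FPKM on day 7, and 76C4 (c105417.graph_c1), named after an Arabidopsis monoterpenol oxidase, had 1034 and 1334 FPKM on day 1 and 3161 and 3512 FPKM on day 7 (adjusted p = 0.00552 by limma). Of 12 UDP-glycosyltransferases, which attach sugars to small molecules, 8 fell and 2 rose, shares near those of all described genes. An anthocyanidin 5,3-O-glucosyltransferase (c109499.graph_c1) had 1112 and 1058 FPKM on day 1 and 207 and 243 FPKM on day 7, while a second gene of that name (c102034.graph_c0) had 38.6 and 44.9 FPKM on day 1 and 152 and 133 FPKM on day 7. The list of BAHD acyltransferases, which acylate alcohols and amines, was matched by name and takes in 4 acetyltransferases of other kinds, among them 2 serine acetyltransferases, enzymes of cysteine synthesis. Of its other 5 members 2 rose and 3 fell, and of the 4 acetyltransferases 1 rose, 2 fell and 1 did not pass. DCR (c102914.graph_c0), needed for cutin in Arabidopsis, fell, with 27.9 and 26.1 FPKM on day 1 and 4.09 and 4.20 FPKM on day 7.

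**Figure D3:**
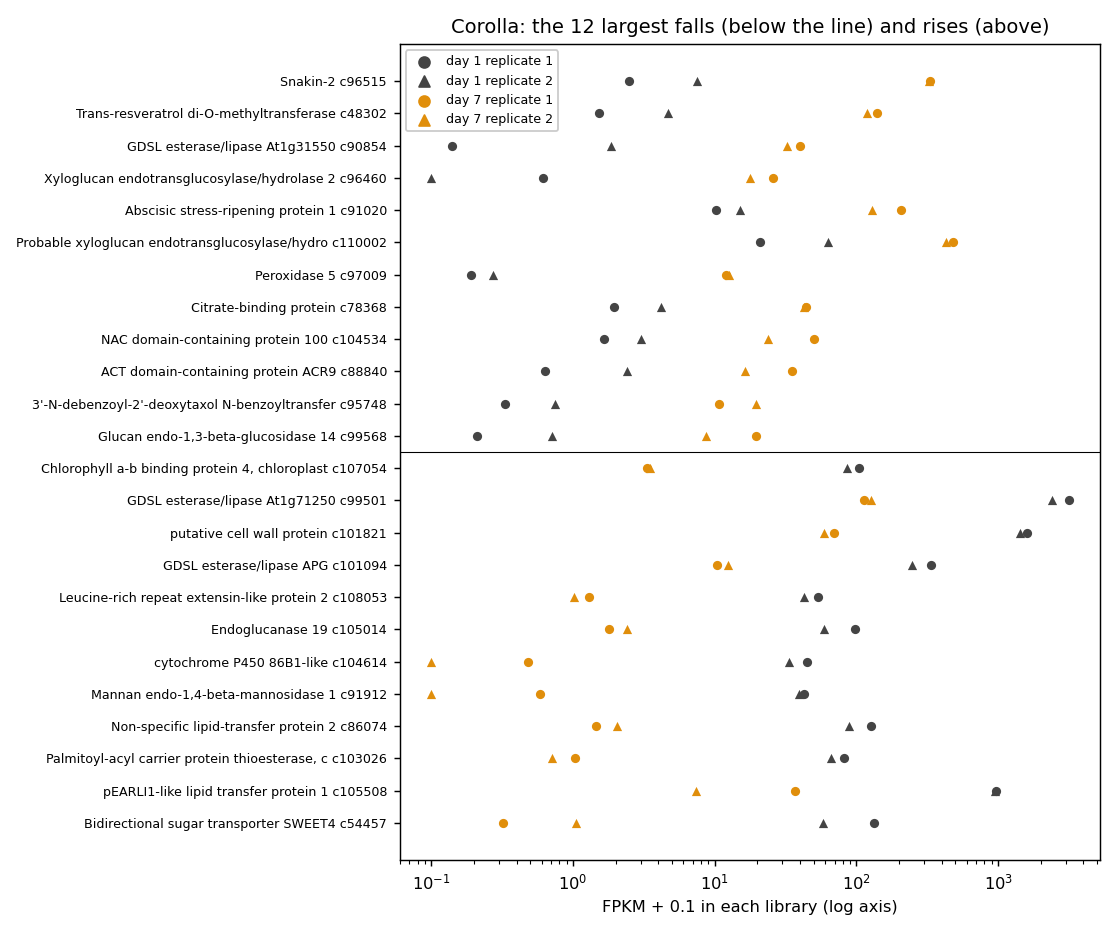
FPKM + 0.1 in each corolla library (log axis) for the 12 largest falls and 12 largest rises among described genes; circles and triangles are replicates 1 and 2, dark for day 1 and orange for day 7. In every gene both day 7 points lie on one side of both day 1 points, as the choice of these genes required.

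In the list of expansins, xyloglucan and pectin enzymes, which act on the cell wall, 21 of 28 fell and 7 rose (median -1.51), where 68.1% of all described genes fell and 27.9% rose. All 5 expansins, which loosen walls without cutting them, fell, as did all 3 pectate lyases. Pectate lyase 8 (c106683.graph_c1) had 1256 and 877 FPKM on day 1 and 137 and 128 FPKM on day 7 (limma log2 fold change -2.98 ± 0.18 SE, adjusted p = 0.00186). Pectate lyase 15 (c101521.graph_c0) had 272 and 183 FPKM on day 1 and 19.00 and 18.9 FPKM on day 7. Of 5 xyloglucan endotransglucosylases, which cut and rejoin xyloglucan chains, 3 rose and 2 fell. The riser with the highest level, c110002.graph_c0, had 20.6 and 62.6 FPKM on day 1 and 482 and 426 FPKM on day 7, with a wide gap between its day 1 replicates (limma log2 fold change 3.61 ± 0.51 SE, adjusted p = 0.0117).

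Among 38 tested genes for cellulose, hemicellulose and other wall enzymes, 30 fell, 7 rose and 1 did not pass (median -1.48). Mannan endo-1,4-beta-mannosidase 1 (c91912.graph_c0), which cuts mannans, had 42.8 and 38.9 FPKM on day 1 and 0.48 and 0 FPKM on day 7 (limma log2 fold change -5.10 ± 0.25 SE, adjusted p = 0.00149). Endoglucanase 19 (c105014.graph_c0) had 97.2 and 59.2 FPKM on day 1 and 1.70 and 2.31 FPKM on day 7, and all 5 endoglucanases fell. Leucine-rich repeat extensin-like protein 2 (c108053.graph_c0), a wall-anchored protein, had 53.5 and 42.5 FPKM on day 1 and 1.20 and 0.92 FPKM on day 7. All 3 were at 2.31 FPKM or less on day 7. Glucan endo-1,3-beta-glucosidase 14 (c99568.graph_c2), of the family that degrades callose, went the other way, with 0.11 and 0.61 FPKM on day 1 and 19.5 and 8.64 FPKM on day 7 (limma log2 fold change 3.40 ± 0.44 SE, adjusted p = 0.00944). Fasciclin-like arabinogalactan protein 2 (c109269.graph_c1) rose, with 57.8 and 108 FPKM on day 1 and 248 and 253 FPKM on day 7 (limma log2 fold change 1.65 ± 0.29 SE, adjusted p = 0.0217).

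Water channels were one of the smaller groups with more rises than falls: 4 of 6 tested aquaporins rose and 2 fell (median 1.22). The plasma membrane aquaporin PIP2-2 (c106508.graph_c1) had 473 and 688 FPKM on day 1 and 1898 and 2386 FPKM on day 7 (limma log2 fold change 1.90 ± 0.22 SE, adjusted p = 0.0072). PIP2-8 (c96314.graph_c0) had 429 and 394 FPKM on day 1 and 83.6 and 69.4 FPKM on day 7 (limma log2 fold change -2.42 ± 0.12 SE, adjusted p = 0.00149). Day 1 levels of the 2 lay between 394 and 688 FPKM, and on day 7 PIP2-2 was far the higher. The vacuolar channel TIP1-1 (c94097.graph_c0) had 287 and 294 FPKM on day 1 and 524 and 628 FPKM on day 7 and rose (log2 fold change 0.98, limma adjusted p = 0.00688).

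Ion and metal transporters split 7 up and 6 down of 13. The 4 boron transporters, which export borate from cells, split evenly. Boron transporter 1 (c101387.graph_c0) had 4.44 and 5.54 FPKM on day 1 and 40.6 and 27.7 FPKM on day 7 (limma log2 fold change 2.53 ± 0.22 SE, adjusted p = 0.00399). Boron transporter 2 (c108289.graph_c0) had 53.8 and 48.2 FPKM on day 1 and 133 and 90.3 FPKM on day 7 and also rose, whereas boron transporter 4 (c107183.graph_c0) fell, with 27.01 and 21.4 FPKM on day 1 and 7.92 and 7.06 FPKM on day 7 (limma log2 fold change -1.56 ± 0.16 SE, adjusted p = 0.00563). Of 20 ABC and MATE transporters, which export lipids and specialised metabolites, 12 fell and 4 rose. ABC transporter G family member 23 (c101970.graph_c0) had 35.8 and 25.3 FPKM on day 1 and 2.06 and 1.53 FPKM on day 7 (limma log2 fold change -3.48 ± 0.23 SE, adjusted p = 0.00214). ABC transporter C family member 10 (c111049.graph_c0) had 2.07 and 2.10 FPKM on day 1 and 21.8 and 14.9 FPKM on day 7 (limma log2 fold change 2.62 ± 0.23 SE, adjusted p = 0.00388). Sugar and amino acid transporters gave 4 rises and 6 falls of 10. Sugar transport protein 13 (c101676.graph_c0), a hexose importer, had 70.9 and 45.1 FPKM on day 1 and 7.86 and 5.82 FPKM on day 7, while the sucrose transporter SUT1 (c105458.graph_c0), a sucrose importer, had 10.5 and 17.04 FPKM on day 1 and 40.4 and 37.7 FPKM on day 7 (log2 fold changes -2.89 and 1.47, limma adjusted p = 0.00412 and 0.0156).

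Defence-type genes differed with how they were grouped. Of 14 tested members of the list of defence, lectins and pathogenesis-related proteins, 11 rose and 3 fell (median 1.35), against 27.9% of described genes rising; without day 7 replicate 1 the risers numbered 7. In the KOG class of defense mechanisms, an assignment in the authors' deposited table, all 9 tested genes fell, with a median of -1.72. A thaumatin-like protein (c98760.graph_c0), of an antifungal family, had 291 and 328 FPKM on day 1 and 2218 and 2186 FPKM on day 7 (limma log2 fold change 2.83 ± 0.09 SE, adjusted p = 0.00121). Thaumatin-like protein 1 (c109421.graph_c0) was higher still, with 656 and 729 FPKM on day 1 and 2967 and 3228 FPKM on day 7 (limma log2 fold change 2.16 ± 0.10 SE, adjusted p = 0.00149). Both were abundant on day 1 already, and their day 7 replicates lay close together. Pathogenesis-related protein 1 (c108112.graph_c0) came up from below 1 FPKM, with 0.09 and 0.42 FPKM on day 1 and 13.9 and 7.68 FPKM on day 7 (limma log2 fold change 3.19 ± 0.35 SE, adjusted p = 0.00628). Chitinases, which cut fungal walls, differed among themselves: chitinase 2 (c100205.graph_c0) fell, with 71.7 and 77.6 FPKM on day 1 and 8.55 and 5.78 FPKM on day 7, while chitinase 6 (c100675.graph_c0, chosen after its values were seen) had 111 and 122 FPKM on day 1 and 519.8 and 394 FPKM on day 7. MLP-like protein 423 (c88947.graph_c0) fell, with 1875 and 1679.7 FPKM on day 1 and 361 and 389 FPKM on day 7 (limma log2 fold change -2.24 ± 0.10 SE, adjusted p = 0.00138).

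In the list of redox and antioxidant enzymes 16 of 23 fell and 7 rose. These shares are near the 68.1% and 27.9% of all described genes. Peroxidase 45 (c93037.graph_c3) had 77.1 and 53.8 FPKM on day 1 and 2.39 and 1.98 FPKM on day 7 (limma log2 fold change -4.36 ± 0.21 SE, adjusted p = 0.00149), and peroxidase 5 (c97009.graph_c0) had 0.09 and 0.17 FPKM on day 1 and 11.99 and 12.5 FPKM on day 7 (limma log2 fold change 3.55 ± 0.21 SE, adjusted p = 0.00182). These secreted peroxidases exchanged places between the days. Metallothionein-like protein type 2 (c89381.graph_c0), a metal-binding protein, was the most abundant member, with 2283 and 2468 FPKM on day 1 and 7025 and 5457 FPKM on day 7 (limma log2 fold change 1.38 ± 0.16 SE, adjusted p = 0.00733). Both GDP-L-galactose phosphorylases, the controlling step of ascorbate synthesis, fell, the first (c100542.graph_c0) with 974 and 870.4 FPKM on day 1 and 264 and 318 FPKM on day 7 (limma log2 fold change -1.66 ± 0.12 SE, adjusted p = 0.00273); that list was drawn up after values were seen.

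**Figure D4:**
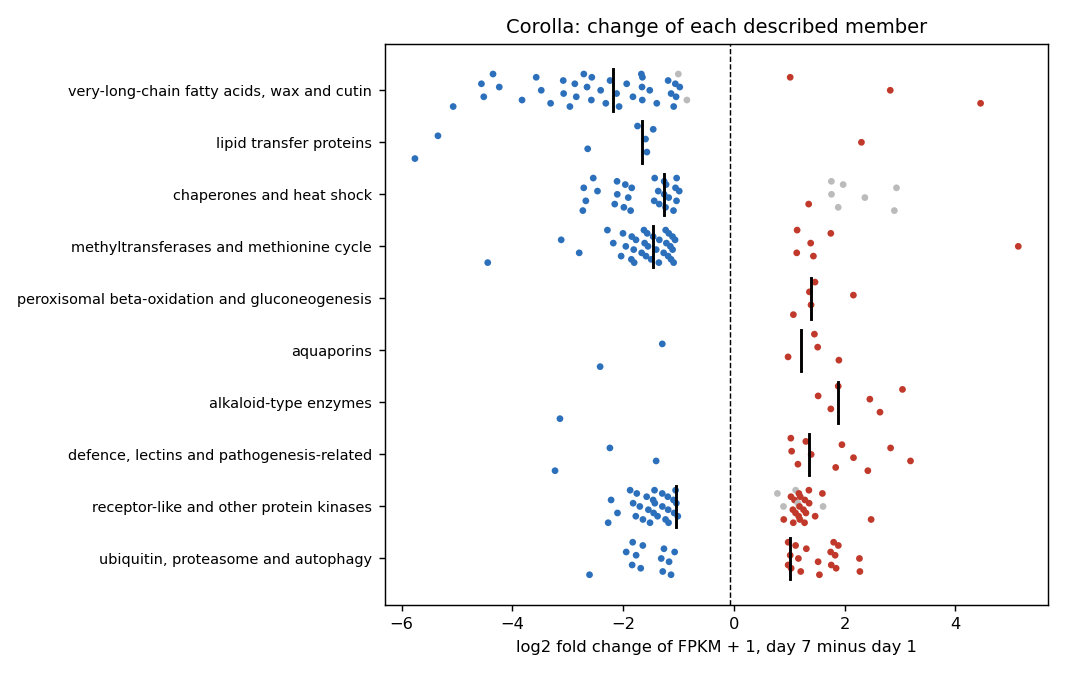
Log2 fold change of each tested member of 10 lists (points), red for higher and blue for lower on day 7 past FDR 0.05 and grey for not passed, with the list's median (black bar) and the median of all tested genes at -0.06 (dashed). Wax and cutin members reach from -5.07 to 4.46 with a median of -2.18, and all 5 beta-oxidation and gluconeogenesis members lie above 1.

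In the list of chaperones and heat shock proteins 27 of 35 fell, 1 rose and 7 did not pass, with a median of -1.26. The 13 members named heat shock proteins differed from the rest of the list: 6 fell, 1 rose and 6 did not pass, with a median of 1.35. The riser, 22.3 kDa class VI heat shock protein (c99424.graph_c0), had 3.27 and 5.27 FPKM on day 1 and 15.0 and 9.89 FPKM on day 7. The 6 that did not pass had changes at that median or above, up to 2.94. All 4 chaperonins and all 5 peptidyl-prolyl isomerases, both folding helpers, were among the fallers. Heat shock cognate 70 kDa protein 2 (c94043.graph_c0) had 476 and 506 FPKM on day 1 and 211 and 205 FPKM on day 7 (limma log2 fold change -1.23 ± 0.08 SE, adjusted p = 0.00192). Chaperonin 60 subunit beta 4 (c104150.graph_c0), which folds plastid proteins, had 12.9 and 11.5 FPKM on day 1 and 1.48 and 1.07 FPKM on day 7. Day 7 levels of both were below every day 1 level.

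Genes for tagging proteins for degradation were split, with more rises. Of 31 tested genes for ubiquitin, the proteasome and autophagy, 18 rose and 13 fell (median 1.02); the risers numbered 10 without day 7 replicate 1. Of 10 F-box proteins, the substrate receptors of a ubiquitin ligase complex, 7 rose and 3 fell, and of 8 genes named as E3 ligases 5 rose and 3 fell. F-box protein SKP2A (c110136.graph_c0) had 12.4 and 13.6 FPKM on day 1 and 87.6 and 50.9 FPKM on day 7 (limma log2 fold change 2.28 ± 0.27 SE, adjusted p = 0.00756). E3 ubiquitin-protein ligase ATL6 (c96007.graph_c0) had 18.3 and 19.9 FPKM on day 1 and 2.59 and 2.02 FPKM on day 7 (limma log2 fold change -2.61 ± 0.17 SE, adjusted p = 0.00229). Proteases gave 8 rises and 11 falls of 20. The largest rise was in a subtilisin-like protease (c106429.graph_c0), a secreted serine protease, with 5.02 and 15.5 FPKM on day 1 and 58.6 and 61.3 FPKM on day 7 (limma log2 fold change 2.61 ± 0.48 SE, adjusted p = 0.0233), and the largest fall in serine carboxypeptidase-like 34 (c31530.graph_c0), with 19.1 and 18.5 FPKM on day 1 and 1.68 and 0.23 FPKM on day 7. Cysteine proteinase inhibitor 1 (c111264.graph_c0), a cystatin, fell, with 393 and 348 FPKM on day 1 and 85.1 and 93.4 FPKM on day 7 (limma log2 fold change -2.04 ± 0.10 SE, adjusted p = 0.00149).

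The list of cytosolic ribosomal proteins and translation factors gave 12 rises and 13 falls of 25, and the 12 risers were exactly its members listed at 0 in both day 1 libraries. On day 7 these 12 were at 1.43 to 5.05 FPKM in replicate 1 and at 1.17 to 3.32 FPKM in replicate 2. None of the 12 passed with no filter on low FPKM or with a minimum of 5 FPKM in 2 libraries, the latter a level that at most 1 library of each reaches; with the replicate block 7 passed and without day 7 replicate 1 3 passed. For 5 of them the best protein match was to a species outside the land plants. All 15 described genes with such a best match were listed at 0 in both day 1 corolla libraries, and 10 of the 15 were above 0 in both day 7 petal libraries. Whether they come from the flower was not tested. The 13 members that were present on day 1 all fell, for example 60S ribosomal protein L27 (c86298.graph_c0), with 685 and 656 FPKM on day 1 and 267 and 283 FPKM on day 7 (limma log2 fold change -1.28 ± 0.08 SE, adjusted p = 0.00186).

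Of 260 tested genes whose name contains "chloroplastic", 231 fell and 23 rose (median -1.50), where 68.1% of all described genes fell, and of 12 whose name contains "mitochondrial" and is not among these 10 fell and 2 rose. Plastid ribosomal proteins and import factors fell in 38 of 40 cases; 50S ribosomal protein L15 (c84916.graph_c0) had 152 and 151 FPKM on day 1 and 25.2 and 22.3 FPKM on day 7 (limma log2 fold change -2.63 ± 0.09 SE, adjusted p = 0.00127). The falling mitochondrial genes included glycine cleavage system H protein (c78953.graph_c0), of photorespiration, with 29.4 and 32.6 FPKM on day 1 and 3.16 and 3.81 FPKM on day 7. The rising ones were ornithine aminotransferase (c95504.graph_c0), which degrades arginine-derived ornithine, with 21.4 and 26.8 FPKM on day 1 and 99.1 and 78.6 FPKM on day 7 (limma log2 fold change 1.84 ± 0.17 SE, adjusted p = 0.00417), and the adenine nucleotide carrier ADNT1 (c101551.graph_c0), with 1.69 and 1.66 FPKM on day 1 and 13.03 and 8.48 FPKM on day 7.

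Signalling genes moved in both directions. Of 53 tested protein kinases 20 rose, 28 fell and 5 did not pass. Receptor-like kinases, which perceive signals at the cell surface, gave 8 rises and 17 falls of 27. These shares are near the 27.9% that rose and 68.1% that fell of all described genes. CBL-interacting kinases, which act on calcium signals, gave 3 rises and 4 falls of 7. CBL-interacting protein kinase 2 (c108868.graph_c1) had 67.7 and 62.3 FPKM on day 1 and 20.01 and 18.6 FPKM on day 7, and a CBL-interacting protein kinase 1 gene (c102772.graph_c0) had 33.2 and 42.4 FPKM on day 1 and 107 and 89.7 FPKM on day 7 (log2 fold changes -1.70 and 1.36, limma adjusted p = 0.00181 and 0.00722). The calcium signalling list, which shares these kinases, had 5 rises and 9 falls of 15, not far from the shares of all described genes. RALF peptides, secreted signals that alter growth, also differed among themselves. RALF-like 36 (c111252.graph_c0) had 18.1 and 18.4 FPKM on day 1 and 101.1 and 124 FPKM on day 7 (limma log2 fold change 2.55 ± 0.12 SE, adjusted p = 0.00149). RALF-like 33 (c100161.graph_c0) had 207 and 203 FPKM on day 1 and 74.6 and 62.6 FPKM on day 7 (limma log2 fold change -1.57 ± 0.11 SE, adjusted p = 0.00237), so the 2 exchanged their order.

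Among transcription factors, 4 of 5 homeobox-leucine zipper genes rose. HOX6 (c105587.graph_c0) had 18.6 and 20.3 FPKM on day 1 and 93.9 and 58.6 FPKM on day 7 (limma log2 fold change 1.88 ± 0.23 SE, adjusted p = 0.00873). Basic leucine zipper 2 (c94450.graph_c0) fell, with 19.96 and 14.9 FPKM on day 1 and 0.88 and 0.73 FPKM on day 7 (limma log2 fold change -3.34 ± 0.22 SE, adjusted p = 0.0022). The 4 B-box zinc finger genes, which act in light responses, split evenly: B-box 21 (c96284.graph_c0) had 105 and 84.3 FPKM on day 1 and 23.8 and 22.1 FPKM on day 7 and B-box 19 (c102677.graph_c0) had 7.45 and 9.06 FPKM on day 1 and 39.4 and 34.3 FPKM on day 7. The 2 were far apart on day 1, and on day 7 the second was the higher. All 4 CCCH zinc finger genes rose, with CCCH 2 (c96400.graph_c0) at 4.96 and 6.09 FPKM on day 1 and 71.98 and 39.6 FPKM on day 7 (limma log2 fold change 3.07 ± 0.30 SE, adjusted p = 0.00505). In the list of light and clock genes 7 of 8 fell and 1 rose; GIGANTEA (c107176.graph_c2), a clock protein of the evening, had 95.02 and 93.6 FPKM on day 1 and 40.1 and 38.3 FPKM on day 7 (limma log2 fold change -1.25 ± 0.08 SE, adjusted p = 0.00205). No source used here gives the hour of sampling, and its part in these clock genes was not tested.

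Genes of the cytoskeleton fell in 9 of 14 cases and rose in 4, shares near the 68.1% and 27.9% of all described genes. Of 5 tubulins, the subunits of microtubules, 4 fell, and tubulin alpha-6 (c108589.graph_c0) had 315 and 291 FPKM on day 1 and 81.7 and 94.2 FPKM on day 7 (limma log2 fold change -1.78 ± 0.10 SE, adjusted p = 0.00179). The actin-severing factor actin-depolymerizing factor 5 (c105726.graph_c2) rose, with 21.2 and 23.8 FPKM on day 1 and 64.6 and 55.2 FPKM on day 7 (limma log2 fold change 1.37 ± 0.12 SE, adjusted p = 0.00407). Of 7 vesicle traffic genes 5 fell and 2 rose, also near those shares. A Dynamin-related protein 1C gene (c85303.graph_c1), of the family that pinches off membrane, had 37.7 and 38.1 FPKM on day 1 and 8.95 and 7.71 FPKM on day 7.

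Gene Ontology terms were carried by 995 tested genes. Of the 15 largest process terms, none had more rises than falls. The term cysteine biosynthetic process had 24 falls and no rise of 24 (median -2.16), and thylakoid membrane organization 30 falls and no rise of 32. The former does not hold every gene named for cysteine synthesis, and whether its 24 genes act in that synthesis was not tested. Cysteine synthase (c102532.graph_c0) and serine acetyltransferase 5 (c109395.graph_c1) are not among the 24 and rose (log2 fold changes 1.18 and 1.14, limma adjusted p = 0.0106 and 0.00853). Among component terms, the 83 genes of the chloroplast stroma had 82 falls and no rise, and the 42 genes of the apoplast, the space outside the cell membrane, 38 falls and 4 rises (median -1.75). Calcium ion binding had 16 falls of 16. Zinc ion binding was the largest term in which rises outnumbered falls, 15 to 11 of 27, and binding, with 10 rises and 7 falls of 18, was the only other among the 15 largest of each class.

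Most genes that passed have no description: 3391 of 4820, with 1047 rises and 2344 falls. Descriptions in the petal table alone cover 325 further tested genes, which were named because of petal and were not called by the authors in corolla. Of these 47 (14.5%) rose and 100 (30.8%) fell, with a median of -0.23. In them the wax and cutin list had 3 members, 1 of which fell, the chaperone list 9, of which 6 fell and 1 rose, and the abscisic acid and gibberellin list 6, of which 5 rose and 1 fell. Of the most abundant genes, the undescribed c73852.graph_c0 had 39031 and 45088 FPKM on day 1 and 62127 and 68641 FPKM on day 7, and the days did not overlap, but its change did not pass (limma log2 fold change 0.64 ± 0.24 SE, adjusted p = 0.129). A further undescribed gene, c93840.graph_c0, had 5743 and 6059 FPKM on day 1 and 5779.5 and 21428 FPKM on day 7. Its level in day 7 replicate 2 alone stood far above the other 3 libraries, and its change of 0.92 had a limma adjusted p of 0.354. The undescribed gene pieces c106549.graph_c1 and c106549.graph_c2 showed that pattern too, at 7187 and 5949 FPKM on day 1 and 7358 and 18635 FPKM on day 7 in the former.

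The day effect was set against petal by the interaction term of a limma fit over all 8 libraries. Of 26460 genes tested there, 173 (0.654%) differed between the tissues, 69 with the higher and 104 with the lower change in corolla; 89 carry a description. By the sign of the change alone, whether or not it passed within a tissue, 56 of the 104 fell in both tissues and 45 had opposite signs. Of the 69, 13 rose in both tissues, 40 had opposite signs and 16 fell in both. The wax and cutin list had 10 of 41 members among the genes with the lower change in corolla and none among the higher. Names with "chloroplastic" had 25 of 259 in the former and 3 in the latter. Members of both lists are described only because the authors called their change in corolla. The share of 0.654% over all genes is therefore no background for these counts, which are a description. Leaving out day 1 replicate 1 of corolla took the 173 to 14, day 1 replicate 2 to 46, day 7 replicate 1 to 155 and day 7 replicate 2 to 95. With a replicate block within day, added after seeing the data, 335 genes passed, 162 with the higher and 173 with the lower change in corolla.

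An ECERIFERUM 1 gene (c103187.graph_c0) went in opposite directions, with 15.6 and 15.2 FPKM on day 1 and 2.80 and 2.76 FPKM on day 7 in corolla and 58.2 and 66.1 FPKM on day 1 and 135 and 130.4 FPKM on day 7 in petal. The interaction term was -3.20 ± 0.17 SE, limma adjusted p = 0.000727. The import-associated dehydrogenase TIC 32 (c90015.graph_c0) had 59.4 and 54.7 FPKM on day 1 and 8.23 and 8.71 FPKM on day 7 in corolla against 8.40 and 9.11 FPKM on day 1 and 13.4 and 11.1 FPKM on day 7 in petal (-3.05 ± 0.21 SE, limma adjusted p = 0.0023). CONSTANS-LIKE 7 (c99027.graph_c1), of a family of light-dependent regulators, had 21.8 and 16.8 FPKM on day 1 and 1.16 and 0.81 FPKM on day 7 in corolla, while petal was near 0 on both days, with 0.32 and 0.16 FPKM on day 1 and 0.20 and 0.20 FPKM on day 7 (-3.31 ± 0.37 SE, limma adjusted p = 0.0123). In the other direction, lysine histidine transporter 1 (c106200.graph_c0), an amino acid importer, had 1.27 and 1.39 FPKM on day 1 and 21.9 and 18.2 FPKM on day 7 in corolla and 10.1 and 12.6 FPKM on day 1 and 11.5 and 15.96 FPKM on day 7 in petal (2.92 ± 0.29 SE, limma adjusted p = 0.00828). Galactinol synthase 1 (c102146.graph_c0), which starts raffinose-type sugars, rose in corolla, with 7.84 and 13.2 FPKM on day 1 and 28.9 and 27.8 FPKM on day 7, and fell in petal, with 47.3 and 38.5 FPKM on day 1 and 16.1 and 17.1 FPKM on day 7 (2.70 ± 0.31 SE, limma adjusted p = 0.0132). For the last 2 genes petal was the higher tissue on day 1 and corolla on day 7, as far as FPKM of the 2 tables, normalised separately, can be set side by side.

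**Figure D5:**
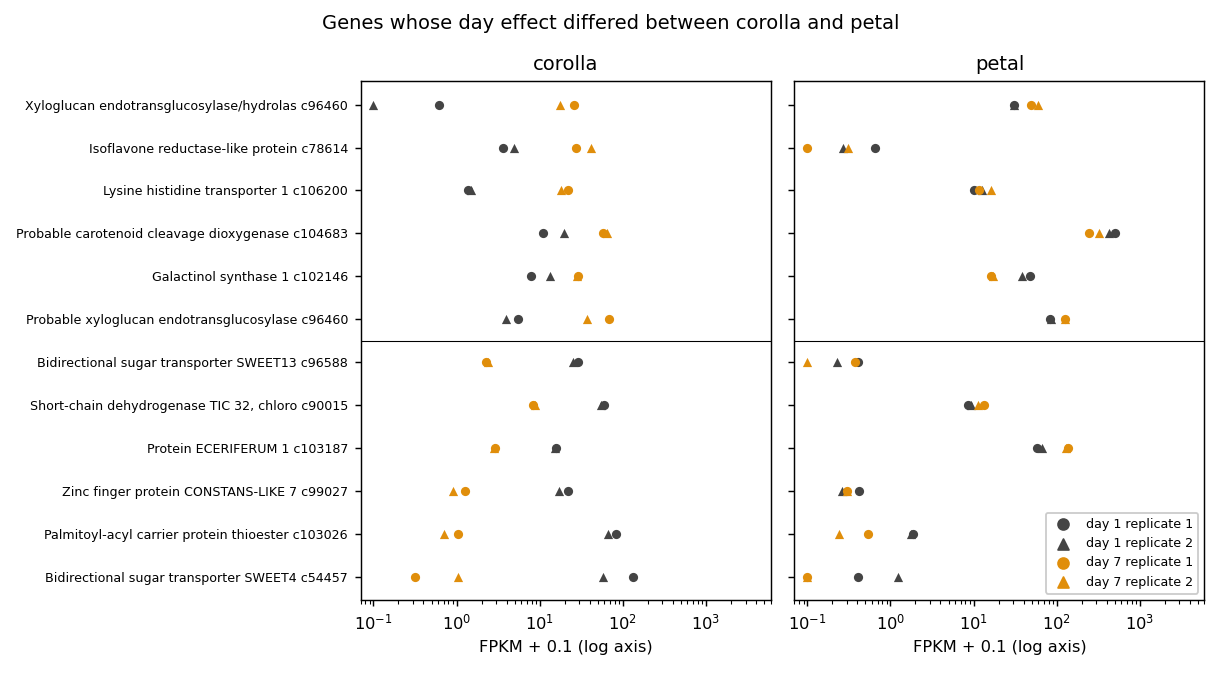
FPKM + 0.1 (log axis) in the 4 corolla and 4 petal libraries for the 6 largest interaction terms in each direction, the lower change in corolla below the line and the higher above it; circles and triangles are replicates 1 and 2, dark for day 1 and orange for day 7. The ECERIFERUM 1 gene falls in corolla and rises in petal, while galactinol synthase 1 does the reverse.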

How the data were processed

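FPKM of all assembled genes were computed by the authors and deposited rounded to 2 decimals, in a table per tissue; assembly was de novo, per the labels. The tools listed, per the submitters' processing notes, are Bowtie and RSEM, without versions. The deposited read counts cover only genes the authors called, so total depth is not known and counts served only for relative depth and summed 1664739 to 3471042 per corolla library. The authors' p-values (FDR) and the log2 fold changes they deposited were not used for tests, and came from a tool not given in the sources used here. An FPKM of 0 is reported as listed at 0, not as absence.

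Corolla genes reaching 1 FPKM in 2 or more of 4 libraries were tested on log2(FPKM + 1) with limma 3.58.1 in R 4.3.3 (trend in the prior variance, two-sided, Benjamini-Hochberg FDR 0.05), and the difference from petal as an interaction over 8 libraries. edgeR 4.0.16 served only for TMM factors on FPKM as an alternative. The code was first tested on simulated data. Tables and plots used Python 3.11.15, pandas 2.3.3, numpy 2.4.6 and matplotlib 3.10.9.

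The comparison and all lists were chosen with earlier results of these data known. Descriptions are Swiss-Prot names, or Nr names where those were missing, and 52 lists match words in them; patterns that matched by chance were corrected, and 8 lists added, after values were seen. Named genes are the 12 largest rises and falls with at least 10 FPKM on the higher day, the 3 largest each way and the most abundant member of each list, the 10 most abundant genes, and the 6 largest interaction terms each way; others are said to be chosen after their values were seen or complete a count.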

Additional observations from a re-analysis of the deposited data

Results flagged for a closer look

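For 12 described genes the change from day 1 to day 7 differed between corolla and petal by the interaction term of limma over 8 libraries, the 6 largest each way; terms are corolla minus petal on the log2 scale. A sugar transporter, SWEET4 (c54457.graph_c0), had -5.10 ± 0.61 SE, limma adjusted p = 0.0153. Palmitoyl-acyl carrier protein thioesterase (c103026.graph_c0) had -4.31 ± 0.33 SE, limma adjusted p = 0.00275. CONSTANS-LIKE 7 (c99027.graph_c1) had -3.31 ± 0.37 SE, limma adjusted p = 0.0123, and ECERIFERUM 1 (c103187.graph_c0) had -3.20 ± 0.17 SE, limma adjusted p = 0.000727. TIC 32 (c90015.graph_c0) had -3.05 ± 0.21 SE, limma adjusted p = 0.0023, and SWEET13 (c96588.graph_c0) had -3.01 ± 0.35 SE, limma adjusted p = 0.0132. Petal levels of SWEET4, SWEET13 and CONSTANS-LIKE 7 were near 0 on both days. The thioesterase was low in petal too, with 1.75 and 1.69 FPKM on day 1 and 0.43 and 0.14 FPKM on day 7. At such levels the added 1 FPKM understates the petal change.

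The larger change in corolla was upward in the other 6. Xyloglucan endotransglucosylase/hydrolase 2 (c96460.graph_c3) had 3.38 ± 0.35 SE, limma adjusted p = 0.00888, and the neighbouring piece c96460.graph_c2 had 2.63 ± 0.36 SE, limma adjusted p = 0.0257. The former was at 0.51 and 0 FPKM on day 1 in corolla, so the size of its term rests on the added 1 FPKM. An isoflavone reductase-like protein (c78614.graph_c0) had 3.02 ± 0.41 SE, limma adjusted p = 0.0249, and was at 0.56 FPKM or less in every petal library. Lysine histidine transporter 1 (c106200.graph_c0) had 2.92 ± 0.29 SE, limma adjusted p = 0.00828. Carotenoid cleavage dioxygenase 4 (c104683.graph_c0) had 2.73 ± 0.35 SE, limma adjusted p = 0.02, and galactinol synthase 1 (c102146.graph_c0) had 2.70 ± 0.31 SE, limma adjusted p = 0.0132. All 12 kept their side of the threshold under TMM scaling, with the replicate block and without day 7 replicate 1 of corolla. With a pseudocount of 0.1 FPKM, 5 no longer passed, without day 1 replicate 1 of corolla 7, without day 1 replicate 2 of corolla 4 and without day 7 replicate 2 of corolla 2.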

How the results depend on the processing

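With no filter on low FPKM the genes past the threshold in corolla fell to 2452, with 560 up and 1892 down, of 64490 tested. TMM scaling gave 1850 up and 3072 down, so 37.6% of calls were rises against 30.3%. Leaving out a library gave 0 to 2932 genes, 0 to 1074 up and 0 to 1932 down; 1 residual degree of freedom remained with a day of 1 library, assumed to vary like the other day. The undescribed c93840.graph_c0 was at 1.86 without day 7 replicate 1 and reversed to -0.0295 without day 7 replicate 2. Of 280 named genes that passed, 267 passed in every setting that kept all libraries, and 246 without either day 7 library in turn. Against petal, a pseudocount of 0.1 gave 131 genes in place of 173, and TMM scaling 244, 110 of them higher. Leaving out a corolla library gave 14 to 155 genes, 5 to 56 higher and 9 to 111 lower.

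Replicate numbers did not pair the corolla days (correlation of deviations -0.001); with the replicate block 3403 genes passed, 942 up and 2461 down. Same-numbered corolla and petal libraries of a day deviated together (0.139 and 0.293 on days 1 and 7, and 0.394 and 0.594 over the 13236 genes that average 5 FPKM or more), and a replicate block within day, added after seeing the data, gave 335 interaction genes, 162 higher and 173 lower.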
